A study of Mus musculus with 16 samples.

Results

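The nuclear genes for subunits of the mitochondrial respiratory chain and of ATP synthase were examined across 8 sorted populations of differentiating mouse embryonic stem (ES) cells. They were chosen by gene symbol: Nduf followed by a, b, c, s or v and a number, Sdha to Sdhd, symbols beginning with Uqcr, the subunits Cox4 to Cox8, and symbols beginning with Atp5. This gave 81 of the 18193 genes that had a probe set annotated to 1 symbol only, with 35 genes for complex I, 4 for complex II, 8 for complex III, 17 for complex IV and 17 for complex V. The 81 genes had 164 such probe sets, and each gene was read from the probe set with the highest mean log2 signal over the 16 arrays. All 81 passed into the tests, since no filter on low values was used.

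Complex I takes electrons from NADH and complex II, which is also the succinate dehydrogenase of the citric acid cycle, takes them from succinate. Complex III passes them to cytochrome c and complex IV, cytochrome c oxidase, passes them to oxygen, while complexes I, III and IV pump protons across the inner mitochondrial membrane. Complex V, the ATP synthase, lets the protons back and makes ATP. Pluripotent stem cells are known for strong glycolysis, and heart muscle is known for a dense respiratory chain and for its own forms of some complex IV subunits. The subunits that mitochondrial DNA encodes did not match these symbols and were not examined.

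The cells were CCE mouse ES cells, an established line, grown into embryoid bodies without leukaemia inhibitory factor, with no mutation or treatment that differed between the groups. They were fixed in ethanol and acetic acid, stained and sorted into VEGF-R2+ and VEGF-R2- cells at day 2.5, CD41+ and CD41- cells at day 3.5, CD144+ and CD144- cells at day 3.5, and CD144+ and CD144- cells at day 6.5. The study took VEGF-R2+ cells as hemangioblasts, CD41+ cells as hematopoietic progenitors, and CD144+ cells as angioblasts at day 3.5 and as endothelial cells at day 6.5. Each population had 2 arrays, from experiments the study describes as separately conducted. Only 1 cell line was used, and a negative fraction is a mixture of cells that lacked the antigen. The p-values measure the spread between duplicate arrays, pooled over the 8 populations. The labels name each fraction by a single antigen. The study also writes the later positive cells as VEGF-R2+/CD41+ and VEGF-R2+/CD144+, and the CD41- cells as VEGF-R2-/CD41-. Whether the later sorts were gated on VEGF-R2 as well is not settled by the labels. The positive fractions were named by their surface antigen here, and the genes of the 3 sorting markers were higher in the positive cells in all 4 same-day comparisons.

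4 members, Cox6b2, Cox7a1, Ndufa6 and Ndufv3, had higher signals in each of the later positive populations (CD41+ cells, CD144+ cells at day 3.5 and CD144+ cells at day 6.5) than in VEGF-R2+ cells. Their promoters are shown because each of them was called higher in each of these comparisons, which share the 2 VEGF-R2+ arrays. The shares of members called higher were 6.17%, 6.17% and 4.94%. Over all probe sets they were 5.02%, 4.87% and 9.4%, so the count itself was near or below that of all probe sets. The sequences are RefSeq's (build GRCm38.p6), the 250 bases before the annotated start, with the letters CCAAT, or ATTGG where the box lies on the other strand, in capitals.
Cox6b2 (chr7:4753095-4753344, minus strand): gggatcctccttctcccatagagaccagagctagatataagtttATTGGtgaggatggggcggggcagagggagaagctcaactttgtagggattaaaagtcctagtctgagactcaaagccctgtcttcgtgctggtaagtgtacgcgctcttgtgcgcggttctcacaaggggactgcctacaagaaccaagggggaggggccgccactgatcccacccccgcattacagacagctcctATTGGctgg
Cox7a1 (chr7:30183921-30184170, plus strand): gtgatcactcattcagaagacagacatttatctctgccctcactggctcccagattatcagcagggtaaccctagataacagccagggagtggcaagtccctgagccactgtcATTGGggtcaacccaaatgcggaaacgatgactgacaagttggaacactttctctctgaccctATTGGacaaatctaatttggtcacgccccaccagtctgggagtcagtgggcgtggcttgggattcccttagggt
Ndufa6 (chr15:82354292-82354541, minus strand): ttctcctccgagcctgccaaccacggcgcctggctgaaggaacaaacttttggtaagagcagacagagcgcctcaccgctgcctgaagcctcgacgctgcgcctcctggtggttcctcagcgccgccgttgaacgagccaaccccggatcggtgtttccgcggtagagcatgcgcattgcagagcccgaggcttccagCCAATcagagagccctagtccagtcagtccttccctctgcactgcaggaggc
Ndufv3 (chr17:31519865-31520114, plus strand): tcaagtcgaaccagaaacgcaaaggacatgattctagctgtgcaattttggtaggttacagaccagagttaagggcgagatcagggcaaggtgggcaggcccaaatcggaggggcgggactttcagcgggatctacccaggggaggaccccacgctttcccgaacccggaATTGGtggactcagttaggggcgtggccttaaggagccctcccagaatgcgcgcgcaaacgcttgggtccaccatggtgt

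The CCAAT box stood in all 4 of these promoters, with 2 matches in those of Cox6b2 and Cox7a1 and 1 in those of Ndufa6 and Ndufv3. It was searched after these 4 members had been picked from the results. The box was common: 28 of the 66 members with a promoter entry held it on either strand (42.4%), beside 37.5% of the promoters of 27025 genes. Among letters tied to respiratory genes, GCGCATGCG, the core of the site of nuclear respiratory factor NRF-1, stood in 5 of the 66 (7.58%, Atp5g2, Atp5k, Atp5l, Cox6a1 and Ndufa8), beside 1.64% of all genes. CCGGAAG, a site for ETS factors such as GABP, stood in 12 of the 66 (18.2%), beside 7.83%. AAGATGGCG, the site of YY1, stood only in the promoter of Atp5j among the 66 (1.52%), beside 0.71%. None of these 3 was found in the 4 promoters printed above, which says only that these letters are not in the windows searched. None of the 4 motifs contains another, each was searched on both strands, and the window searched was the 250 bases before the start.

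The arrays of the positive and of the negative fractions differed as sets. The 99th percentile of the signal was 14004–16760 on the 8 positive arrays and 11448–13207 on the 8 negative arrays, and the highest 1% of signals made up 33.1–40.8% of the summed signal on the positive arrays and 23.6–27.8% on the negative arrays. Control transcripts added at the bench also read higher on the positive arrays (geometric mean 3637–6288) than on the negative arrays (1219–1751). The ratio of 3' to 5' signal of actin was 1.36 and 1.37 on the VEGF-R2- arrays. It was 1.77–3.28 on the later negative arrays and 1.80–2.83 on the positive arrays. The second CD144+ array of day 3.5 had the highest actin ratio, control transcripts and share of the highest 1% among the positive arrays. Duplicates correlated at a Spearman rho of 0.872–0.895 in the positive populations and 0.945–0.955 in the negative populations. The sort and this difference between the sets of arrays cannot be told apart, and it touches every same-day comparison below, because the members were bright: 68 of the 81 had a mean above the 95th percentile of all probe sets.

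In each same-day comparison more members were higher in the positive cells than lower. A member was called where its limma p-value, adjusted over 45037 probe sets, was under 0.05. In VEGF-R2+ against VEGF-R2- cells 55 of 81 members were higher and 2 were lower, while 11.1% of all probe sets were called higher and 13.8% lower. For CD41+ against CD41- cells the counts were 55 higher and 2 lower, with 13.5% and 15.8% of all probe sets. For CD144+ against CD144- cells they were 51 higher and 1 lower at day 3.5, with 9.49% and 10.5% of all probe sets, and 34 higher and 1 lower at day 6.5, with 9.41% and 10.1%. The median log2 fold change of the members was 0.68, 0.65, 0.67 and 0.45 in these comparisons in the same order, and that of all probe sets lay between 0.07 and 0.10.

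With the signals as deposited, other bright probe sets moved the same way, but less. Over the 2252 probe sets in the brightest 5%, the median log2 fold changes were 0.37, 0.29, 0.29 and 0.14 in the same order, with 31.0% to 46.6% called higher and 12.4% to 20.4% called lower. When the 16 arrays were given 1 common distribution (quantile normalization), the members' medians were 0.44, 0.43, 0.38 and 0.32 and the counts 51 higher and 3 lower, 48 and 4, 42 and 3, and 29 and 5. Cyclic loess normalization gave medians of 0.38, 0.44, 0.43 and 0.35 and counts of 37 and 3, 43 and 3, 38 and 3, and 30 and 4. The brightest 5% had medians of 0.05, 0.04, 0.01 and -0.005 under quantile normalization. Of them 21.3% to 29.2% were called higher and 21.7% to 27.1% lower. Under cyclic loess their medians were 0.04, 0.07, 0.03 and 0.04, with 25.6% to 29.8% higher and 22.1% to 26.3% lower. The count for CD144 at day 3.5 fell to 34 without the first CD144- array, and that at day 6.5 to 16 without the second CD144+ array. The day 6.5 count was also far lower in a fit of only the compared populations and with a robust prior, as given at the end. At day 6.5, 0 members passed a 90% confidence bound beyond 2-fold. In sorted populations a lower signal from fewer cells of a type and from less RNA per cell cannot be told apart.

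**Figure D1:**
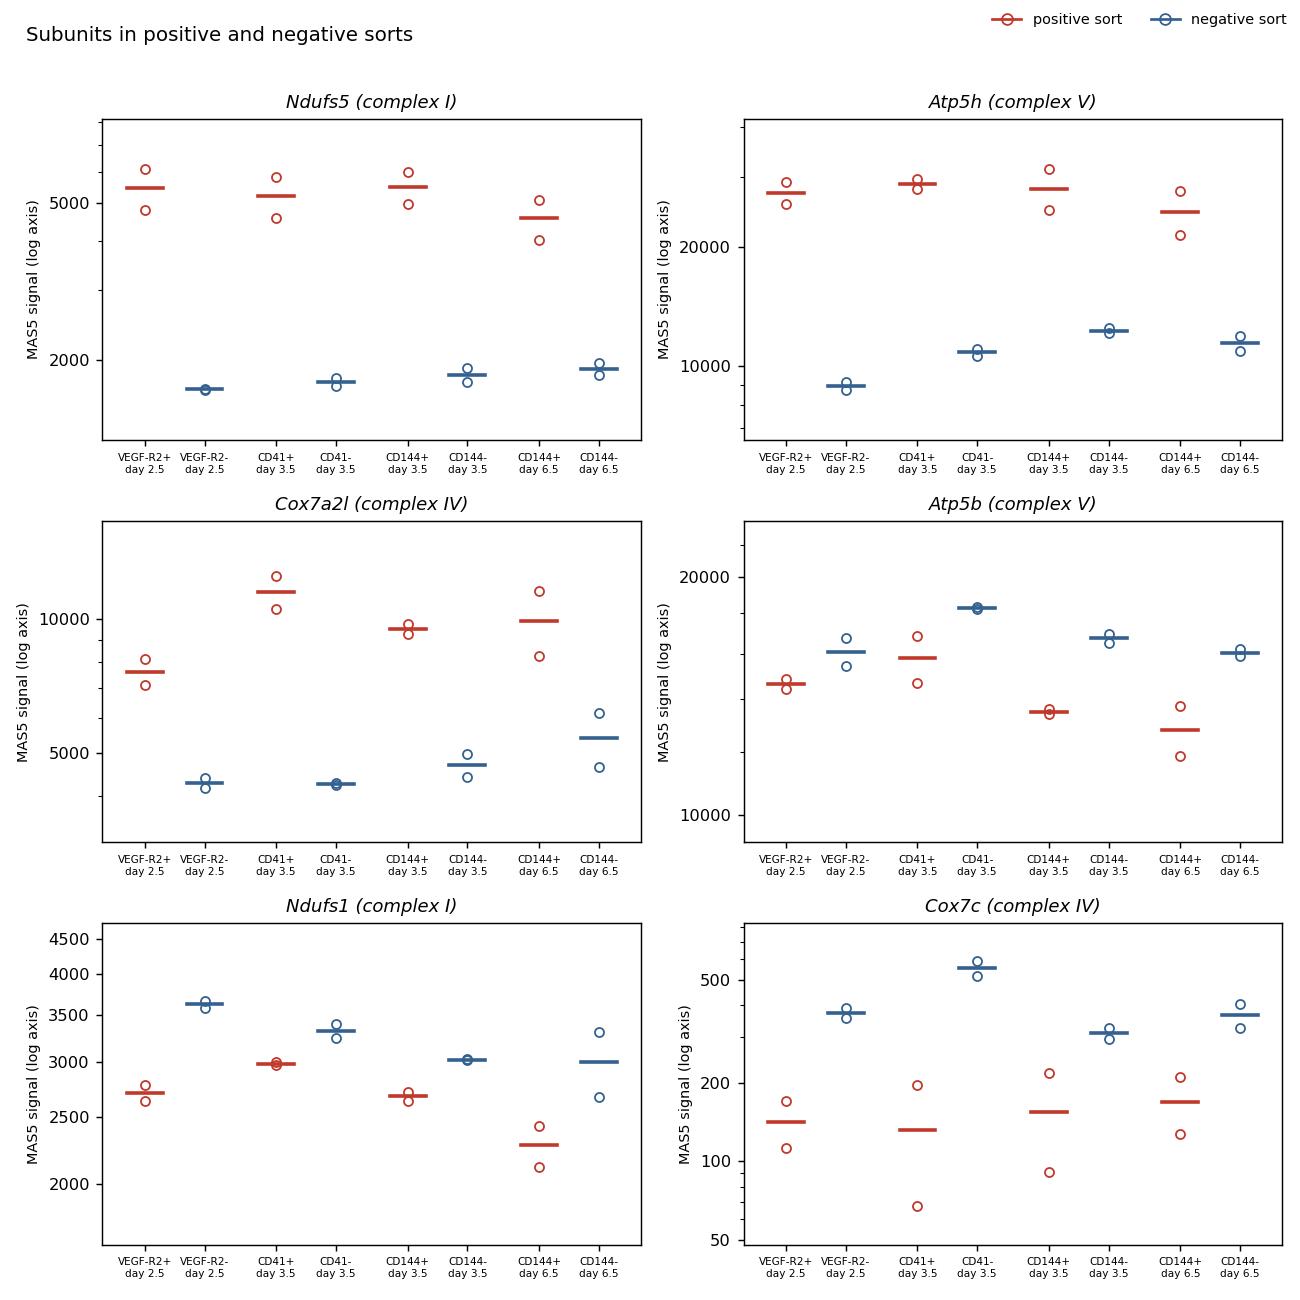
Signal on a log axis for 6 members on all 16 arrays, with each positive population in red to the left of its negative population in blue. Circles are single arrays and bars the means of 2. Ndufs5, Atp5h and Cox7a2l lie higher in every positive population, with no positive array below its negative arrays, whereas Atp5b, Ndufs1 and Cox7c lie lower. Cox7c was read from a dim probe set.

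Complex I supplied the most members. Of its 35 genes, 27 were higher and 1 lower in VEGF-R2+ against VEGF-R2- cells, and 17 were higher and 1 lower in CD144+ against CD144- cells at day 6.5. For complex V, 12 of 17 were higher in the VEGF-R2 comparison, 10 in that of CD41, 11 in that of CD144 at day 3.5 and 8 in that at day 6.5, and none were lower by limma in any of the 4. Complex III had 6, 7, 6 and 4 of its 8 genes higher in the same order. In complex IV 7, 8, 8 and 5 of 17 were higher, and in complex II 3, 2, 1 and 0 of 4. Across all 81 members, 29 were higher in all 4 comparisons (15 of complex I, 3 of complex III, 4 of complex IV and 7 of complex V), 16 in 3, 12 in 2, 7 in 1 and 17 in none.

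**Figure D2:**
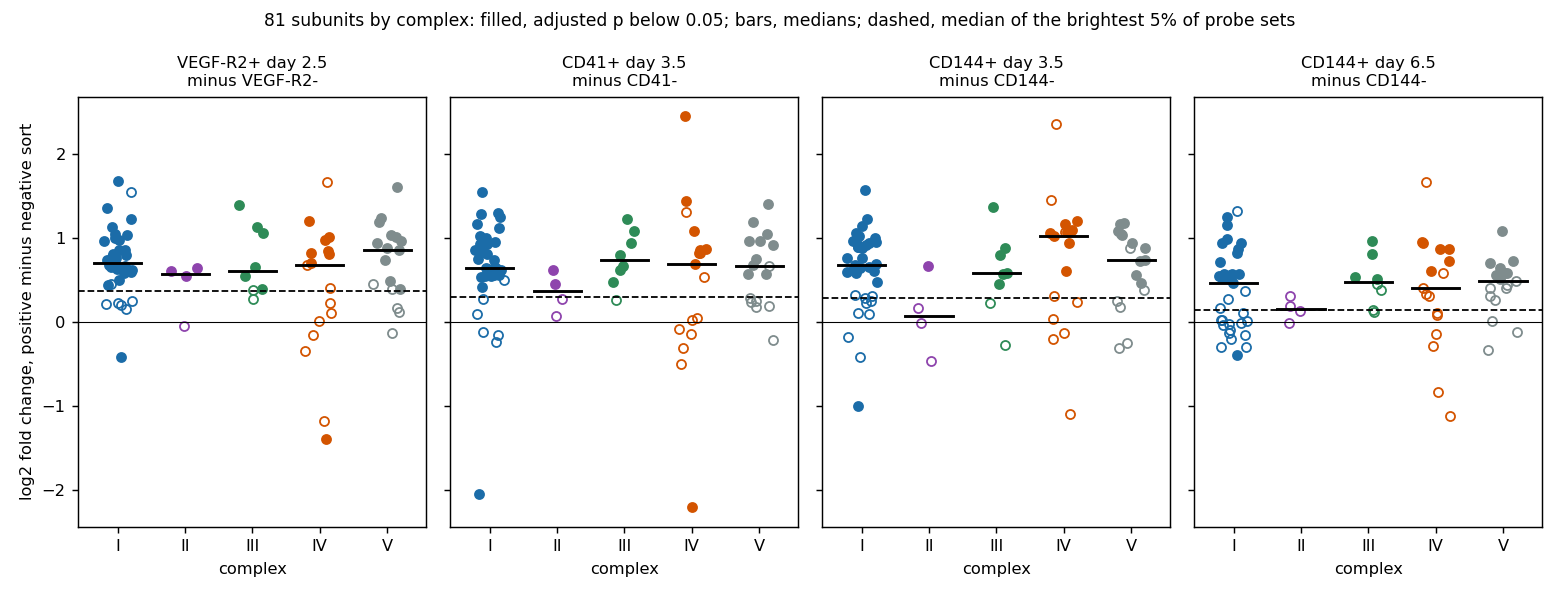
Log2 fold change of the positive against the negative cells for each of the 81 members, by complex, in the 4 same-day sorts. Filled points passed at an adjusted p under 0.05, bars are medians of each complex, and the dashed line is the median of the brightest 5% of probe sets (0.37, 0.29, 0.29 and 0.14). Most filled points lie above the dashed line, and 2, 2, 1 and 1 lie below 0.

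Ndufs5, an accessory subunit of complex I, had the largest rise of the members in VEGF-R2+ cells. Its signals were 4799 and 6079 in VEGF-R2+ cells, against 1692 and 1681 in VEGF-R2- cells. They were 4034 and 5092 in CD144+ cells at day 6.5, against 1835 and 1961 in CD144- cells at day 6.5. The positive arrays lay above the negative ones in both sorts, with log2 fold changes of 1.68 ± 0.16 (adjusted p = 1.48e-06) and 1.25 ± 0.16 (adjusted p = 3.12e-05), and the changes in the CD41 and the day 3.5 CD144 sorts were 1.55 ± 0.16 (adjusted p = 1.26e-06) and 1.57 ± 0.16 (adjusted p = 3.85e-06). This gene was called under every alternative in the first 3 sorts, and at day 6.5 under all but the stricter criterion of a 90% confidence bound beyond 2-fold. The alternatives of another probe set reused the same values, since Ndufs5 had 1 probe set with a single symbol. A brighter one, with a mean log2 signal of 12.12 beside 11.57, was also annotated to Ndufs5-ps and was not used.

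Atp5h encodes subunit d of the peripheral stalk, which holds the head of the ATP synthase still while its rotor turns. It read 25678 and 29075 in VEGF-R2+ cells, against 8741 and 9139.7 in VEGF-R2- cells, and 27992 and 29624 in CD41+ cells, against 11074 and 10634 in CD41- cells. The lowest positive array stood well above the highest negative array in both sorts, at log2 fold changes of 1.61 ± 0.15 (adjusted p = 1.01e-06) and 1.41 ± 0.15 (adjusted p = 1.63e-06). Its other probe set gave a smaller log2 fold change of 0.49 in the VEGF-R2 sort and 0.76 in the CD41 sort, also called. Atp5k, subunit e, where ATP synthase dimers meet, changed by 1.23 ± 0.17 (adjusted p = 6.48e-05) in VEGF-R2+ cells, while its day 6.5 value of 0.49 (adjusted p = 0.0582) was not called.

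Uqcrb, a small subunit of complex III near the ubiquinone site, was also higher in all 4 sorts. Its signals were 49274 and 65759 in CD144+ cells at day 3.5, against 21605 and 22401 in CD144- cells at day 3.5, and 43070 and 52601 in VEGF-R2+ cells, against 18293 and 17911 in VEGF-R2- cells. The groups did not overlap, and the log2 fold changes were 1.37 ± 0.17 (adjusted p = 2.28e-05) and 1.39 ± 0.17 (adjusted p = 1.29e-05). A further probe set for Uqcrb gave 0.55 and 0.73 in these sorts, both called. Among the core proteins of that complex, Uqcrc1 was higher in all 4 sorts and Uqcrc2 in none.

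Ndufa8 and Ndufa3, accessory subunits of complex I, were higher in all 4 sorts, with Ndufa8 at 1.36 ± 0.15 (adjusted p = 5.57e-06) in the VEGF-R2 sort and Ndufa3 at 1.30 ± 0.19 (adjusted p = 4.43e-05) in the CD41 sort. Ndufb10 changed by 1.28 ± 0.16 (adjusted p = 8.24e-06) in the CD41 sort and by 0.54 ± 0.16 (adjusted p = 0.0217) in the day 6.5 CD144 sort. Ndufb5 had the second largest called rise at day 6.5, with a log2 fold change of 1.15 ± 0.14 (adjusted p = 2.09e-05). Ndufs4, whose loss causes a mitochondrial brain disease in mice, changed by 1.22 ± 0.19 (adjusted p = 0.00019) in the VEGF-R2 sort, but its probe set with the largest variance gave -0.15 there, and its other 3 probe sets were not called in that sort.

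Cox4i1, the common form of the subunit that binds nucleotides in complex IV, read 27045 and 30850 in CD144+ cells at day 3.5, against 12245 and 13419 in CD144- cells at day 3.5. The positive arrays were higher without overlap, with a log2 fold change of 1.17 ± 0.14 (adjusted p = 1.91e-05). Cox5b, another subunit on the matrix side, changed by 1.21 ± 0.15 (adjusted p = 3.45e-05) in the same sort. Its day 6.5 value of 0.31 (adjusted p = 0.181) was not called.

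17 members were higher in none of the 4 sorts, and among them were both subunits of the catalytic head of the ATP synthase examined here, alpha and beta. Atp5b, the beta subunit, read 14847 and 14423 in VEGF-R2+ cells, against 15419 and 16738 in VEGF-R2- cells, and 13736 and 11859 in CD144+ cells at day 6.5, against 16201 and 15877 in CD144- cells at day 6.5. The positive arrays were the dimmer ones in both sorts, but the log2 fold changes of -0.13 (adjusted p = 0.477) and -0.33 (adjusted p = 0.073) did not pass. For Atp5a1, the alpha subunit, the 4 values lay between -0.25 and 0.18, and none passed. The others were Ndufb4 (read from a dim probe set), Ndufc1, Ndufs1, Sdhc, Uqcrc2, Cox4i2, Cox5a, Cox6a2, Cox6b2, Cox7a1, Cox7b2, Cox7c (also read from a dim probe set), Cox8a, Atp5md and Atp5pb. The log2 fold change rose with the mean signal over the 81 members at a Spearman rho of 0.15 to 0.34, a description, since genes share their arrays. It cannot show how far brightness bears on the sorts, since 68 of the 81 lay above the 95th percentile of all probe sets.

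3 members were lower in at least 1 same-day comparison. Ndufs1, the largest core subunit of complex I with iron-sulfur clusters that carry electrons, read 2781 and 2633 in VEGF-R2+ cells, against 3582 and 3664 in VEGF-R2- cells. It read 2429.7 and 2122 in CD144+ cells at day 6.5, against 3314 and 2672 in CD144- cells at day 6.5. The positive arrays were the lower ones in both, by -0.42 ± 0.13 (adjusted p = 0.0224) and -0.39 ± 0.13 (adjusted p = 0.0399) on the log2 scale. The VEGF-R2 call was lost without any 1 of its 4 arrays (adjusted p 0.0501 to 0.13), and that of day 6.5 without the second CD144+ array of day 6.5 (adjusted p 0.234) or the first CD144- array of day 6.5 (0.318).

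Cox7c, a small subunit found in all tissues, was lower in 2 sorts, but it was read from a dim probe set. Its mean log2 signal was 7.91, at percentile 67.2 of all probe sets, far below most members. Whether this probe set reports the main transcript was not tested. Its signals were 196 and 67.1 in CD41+ cells, against 590.1 and 519.8 in CD41- cells, and 113 and 172 in VEGF-R2+ cells, against 391 and 358 in VEGF-R2- cells. The negative arrays were higher without overlap, and the log2 fold changes were -2.20 ± 0.44 (adjusted p = 0.000911) in the CD41 sort and -1.39 ± 0.44 (adjusted p = 0.0273) in the VEGF-R2 sort. The other probe set for Cox7c gave -2.02 and -1.20 in these sorts, both called, and -1.44 in the day 3.5 CD144 sort. The VEGF-R2 call was lost without the first VEGF-R2+ array (adjusted p 0.168), the first VEGF-R2- array (0.133) or the second VEGF-R2- array (0.0998), while that of CD41 held.

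Ndufa4l2, the hypoxia-induced relative of Ndufa4, differed in direction between sorts. It read 83.5 and 195 in CD41+ cells, against 504 and 595 in CD41- cells. In the VEGF-R2 sort it read 504 and 473 in VEGF-R2+ cells, against 295 and 258 in VEGF-R2- cells. The CD41+ arrays were the lowest of all 16, and the log2 fold changes were -2.05 ± 0.28 (adjusted p = 3.16e-05) for CD41, -0.99 ± 0.28 (adjusted p = 0.019) for CD144 at day 3.5, 0.81 ± 0.28 (adjusted p = 0.0458) for VEGF-R2 and 0.03 (adjusted p = 0.964) for CD144 at day 6.5. The VEGF-R2 call was lost without any 1 of its 4 arrays (adjusted p 0.111 to 0.219) and the day 3.5 CD144 call without the second CD144+ array of day 3.5 (adjusted p 0.142), the first CD144- array of day 3.5 (0.108) or the second CD144- array of day 3.5 (0.0863), while that of CD41 held throughout.

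Among the positive populations over time most members did not pass the test. The comparisons with VEGF-R2+ cells share its 2 arrays, so each is given by its own values. In CD41+ cells 5 members were higher and 2 lower, with 5.02% and 4.82% of all probe sets called. For CD144+ cells at day 3.5, 5 were higher and 0 lower, with 4.87% and 2.84% of all probe sets, and at an unadjusted p under 0.05 there were 12 in all. For CD144+ cells at day 6.5, 4 were higher and 6 lower, with 9.4% and 6.1%. The members' median log2 fold changes were 0.13, 0.08 and -0.11 in this order.

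**Figure D3:**
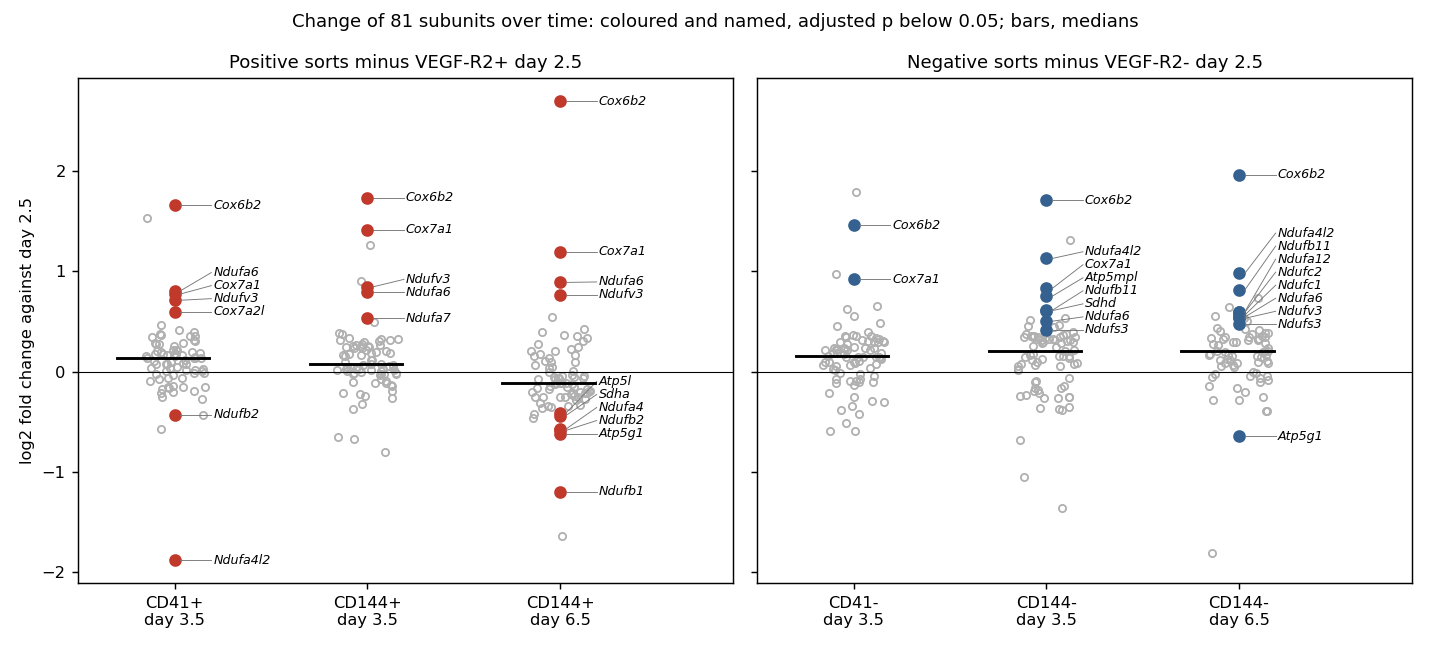
Log2 fold change of each of the 81 members against day 2.5, in positive cells on the left and negative cells on the right. Coloured points passed at an adjusted p under 0.05 and are named, grey circles did not, and bars are medians. Cox6b2 is the highest coloured point in all 6 columns.

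The direction of the last median depended on the scaling. Under quantile normalization it was -0.00097 with 6 members higher and 3 lower, and under cyclic loess 0.04 with 8 higher and 3 lower. The median of all probe sets was 0.11 as deposited, -0.04 under quantile normalization and -0.01 under cyclic loess in that comparison. Over the brightest 5% of probe sets 24.2% were called lower and 7.99% higher, with a median of -0.14. Without 1 array the count for CD41+ cells fell to 3 (first VEGF-R2+ array), that for CD144+ cells at day 3.5 to 2 (second CD144+ array) or 3 (first VEGF-R2+ array), and that for day 6.5 to 6 (4 higher and 2 lower, without the second VEGF-R2+ array).

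Cox6b2, the form of subunit VIb known from testis, had the largest rise. It read 822 and 1070.5 in VEGF-R2+ cells, 2242 and 3958 in CD41+ cells, 3329 and 2958 in CD144+ cells at day 3.5, and 5455 and 6844 in CD144+ cells at day 6.5. The VEGF-R2+ arrays were the lowest and the day 6.5 arrays the highest, with no overlap between them and the populations of day 3.5. The log2 fold changes against VEGF-R2+ cells were 1.66 ± 0.20 (adjusted p = 3.84e-05), 1.74 ± 0.20 (adjusted p = 4.79e-05) and 2.70 ± 0.20 (adjusted p = 2.14e-07). They were called under every alternative, but those of another probe set reused the same values for this gene. Between CD144+ cells at day 6.5 and at day 3.5 the change was 0.96 ± 0.20 (adjusted p = 0.0102), which was lost without the second CD144+ array of day 6.5 (adjusted p 0.093) or the second CD144+ array of day 3.5 (0.0924), and with a robust prior (0.102).

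The negative fractions gave the same order of days for Cox6b2. It read 1073 and 1007 in VEGF-R2- cells, 2924 and 2827 in CD41- cells, 3292 and 3552 in CD144- cells at day 3.5, and 4069 and 4087 in CD144- cells at day 6.5. Again the day 2.5 arrays were the lowest, and the changes against VEGF-R2- cells were 1.46 ± 0.20 (adjusted p = 0.000425), 1.71 ± 0.20 (adjusted p = 4.25e-05) and 1.97 ± 0.20 (adjusted p = 9.27e-06). The same-day differences between positive and negative cells were -0.15, 0.05, -0.12 and 0.58, and none passed. The test of whether the rise differed between positive and negative fractions gave 0.20 (adjusted p = 0.823), 0.02 (adjusted p = 0.982) and 0.73 (adjusted p = 0.181). Its partner Cox6b1, the form found in most tissues, had values of 0.20, 0.09 and -0.22 against VEGF-R2+ cells, none of which passed.

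**Figure D4:**
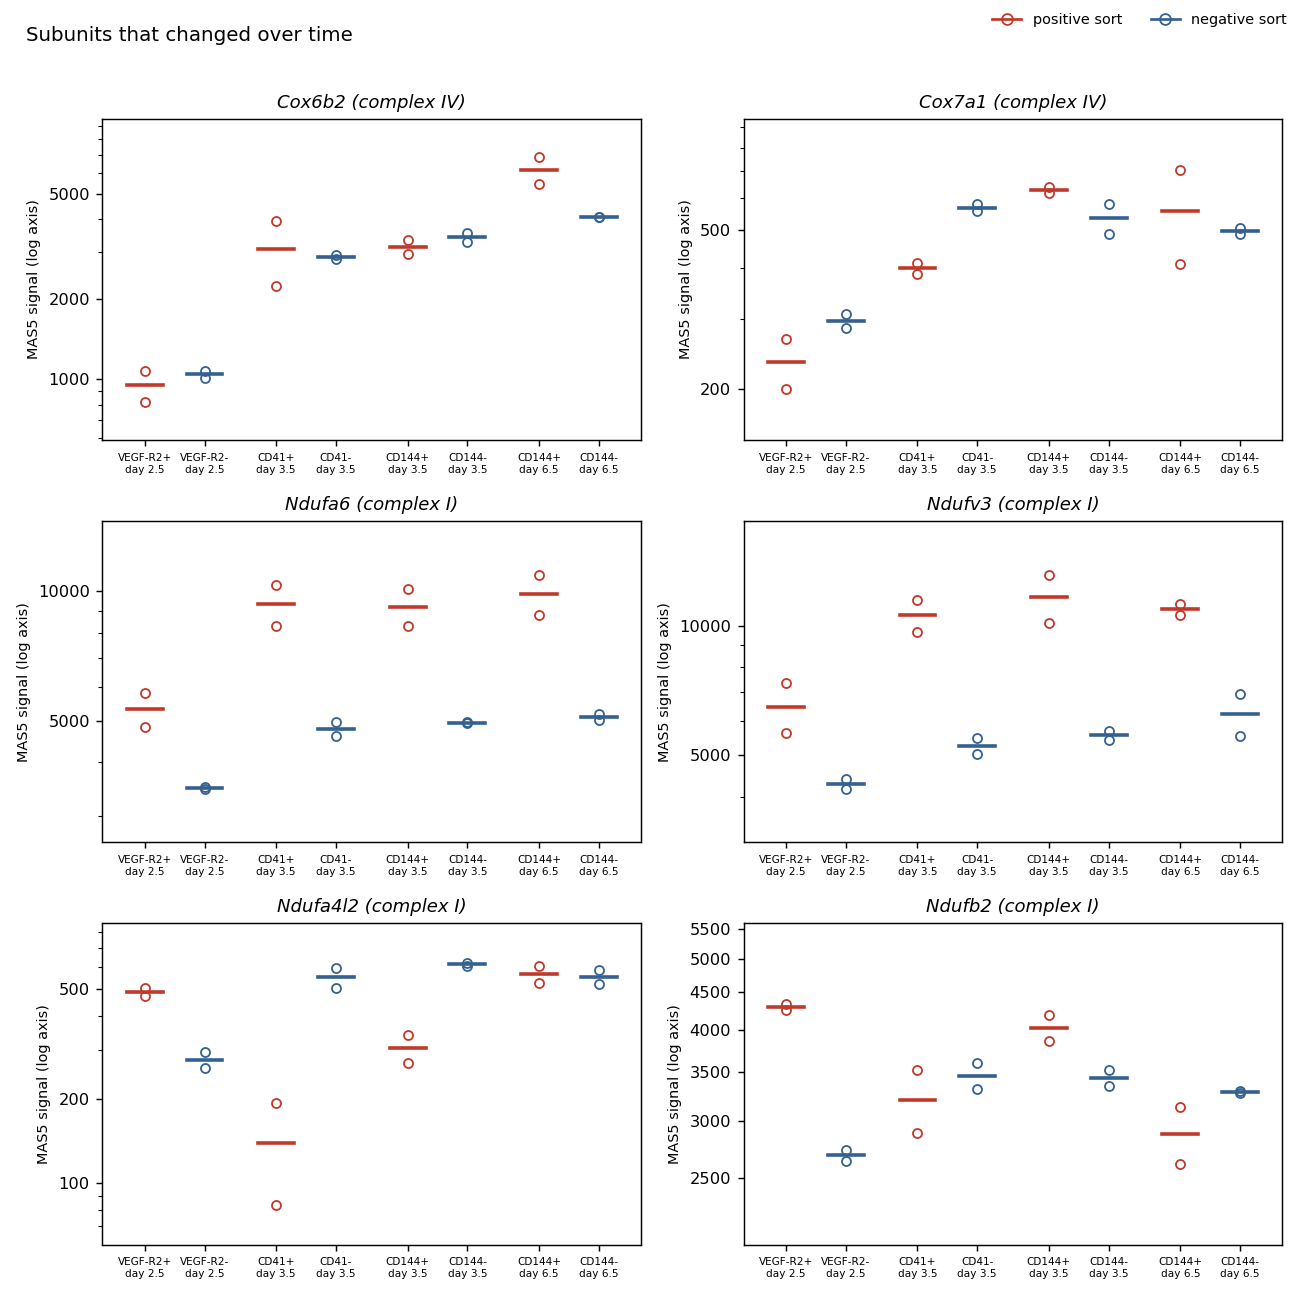
Signal on a log axis for 6 members that changed over time, drawn as in the plot of Ndufs5, with circles for arrays and bars for the means of 2, positive populations in red and negative ones in blue. The day 2.5 arrays of Cox6b2, Cox7a1, Ndufa6 and Ndufv3 are the lowest within each sort sign, and the CD41+ arrays of Ndufa4l2 are the lowest of all 16.

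Cox7a1, the heart and skeletal muscle form of subunit VIIa, also was higher after day 2.5. It read 200.1 and 267 in VEGF-R2+ cells, 389 and 412 in CD41+ cells, 616 and 639 in CD144+ cells at day 3.5, and 410.0 and 704 in CD144+ cells at day 6.5. All later positive arrays were above both VEGF-R2+ arrays, and the changes were 0.77 ± 0.23 (adjusted p = 0.0421), 1.42 ± 0.23 (adjusted p = 0.00102) and 1.20 ± 0.23 (adjusted p = 0.00169). The first of these was lost without the first CD41+ array (adjusted p 0.105), the second CD41+ array (0.113) or the first VEGF-R2+ array (0.238). The change at day 3.5 in CD144+ cells held throughout, and that at day 6.5 held except under the 90% bound beyond 2-fold. Markers of cardiac muscle summed to 9177–10342 in CD144+ cells at day 6.5, 2920–2941 in those at day 3.5 and 1318–1354 in CD41+ cells, beside 12146–12422 in VEGF-R2+ cells. The part of this list in the result was not tested.

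In the negative fractions Cox7a1 read 284 and 308 in VEGF-R2- cells, 578 and 556 in CD41- cells, 488 and 579 in CD144- cells at day 3.5, and 488 and 505 in CD144- cells at day 6.5. The changes against VEGF-R2- cells were 0.92 (adjusted p = 0.0341), 0.83 (adjusted p = 0.0368) and 0.73 (adjusted p = 0.0599), of which the first 2 passed. The first was lost without any 1 of its 4 arrays (adjusted p 0.181 to 0.279) and the other without any 1 of its 4 arrays (adjusted p 0.101 to 0.311). Cox7a2, the form of the same subunit found in most tissues, had values of -0.15, 0.19 and -0.21 in the positive populations, none called.

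Ndufa6, an accessory subunit of the peripheral arm of complex I, read 4845 and 5792 in VEGF-R2+ cells, 8322 and 10333 in CD41+ cells, 8320.3 and 10109 in CD144+ cells at day 3.5, and 8814 and 10951 in CD144+ cells at day 6.5. Every later array was above both VEGF-R2+ arrays, and the changes were 0.81 ± 0.15 (adjusted p = 0.00165), 0.79 ± 0.15 (adjusted p = 0.00298) and 0.89 ± 0.15 (adjusted p = 0.000475). The second was lost without the second CD144+ array of day 3.5 (adjusted p 0.0517) and with a robust prior (0.0663). In the negative fractions its changes against VEGF-R2- cells were 0.45 (adjusted p = 0.127), 0.50 (adjusted p = 0.0489) and 0.55 (adjusted p = 0.0275).

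Ndufv3, a small subunit at the NADH-binding end of complex I, read 5619 and 7331 in VEGF-R2+ cells, 9643 and 11478 in CD41+ cells, 10137 and 13145 in CD144+ cells at day 3.5, and 10584 and 11248 in CD144+ cells at day 6.5. Every later array was again above both VEGF-R2+ arrays, with changes of 0.71 ± 0.16 (adjusted p = 0.00827), 0.85 ± 0.16 (adjusted p = 0.00342) and 0.76 ± 0.16 (adjusted p = 0.00328). The first was lost without the second CD41+ array (adjusted p 0.0632) or the first VEGF-R2+ array (0.11), the second without the second CD144+ array of day 3.5 (adjusted p 0.062) or the first VEGF-R2+ array (0.0586), and the third without the first VEGF-R2+ array (adjusted p 0.0603). Against VEGF-R2- cells its values were 0.29, 0.37 and 0.53, the last with an adjusted p of 0.0491. The promoters of these 4 genes are those printed above.

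In CD41+ cells Cox7a2l was also higher. Its product, known as SCAF1, links complexes III and IV into larger assemblies. It read 12546 and 10561 in CD41+ cells, against 7099 and 8138 in VEGF-R2+ cells. The CD41+ arrays were above the VEGF-R2+ arrays, by 0.60 ± 0.17 (adjusted p = 0.0283) on the log2 scale, and all 3 of its probe sets were called there and in each same-day sort. The call over time was lost without the first CD41+ array (adjusted p 0.194), the first VEGF-R2+ array (0.171) or the second VEGF-R2+ array (0.0568), while its same-day call in the CD41 sort, 1.44 ± 0.17 (adjusted p = 4.46e-06), held throughout. Markers of primitive erythroid cells (7 genes) summed to 95305–114333 in CD41+ cells, beside 806–1087 in VEGF-R2+ cells. Of these genes 7 of 7 were called higher, beside 5.02% of all probe sets. Their part in the values of CD41+ cells was not tested.

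The members lower in CD41+ than in VEGF-R2+ cells were Ndufa4l2 and Ndufb2. Ndufa4l2 read 83.5 and 195 in CD41+ cells, against 504 and 473 in VEGF-R2+ cells, a change of -1.88 ± 0.28 (adjusted p = 0.000285) that held throughout. Ndufb2, an accessory subunit of the membrane arm of complex I, read 2884 and 3521 in CD41+ cells, against 4342 and 4257 in VEGF-R2+ cells. Its change of -0.43 ± 0.13 (adjusted p = 0.046) was lost without the first CD41+ array (adjusted p 0.295), the first VEGF-R2+ array (0.148) or the second VEGF-R2+ array (0.13). Between CD144+ and CD41+ cells, both of day 3.5, 2 members were higher and 0 lower, with 6.06% and 3.72% of all probe sets. These were Ndufa4l2, at 1.21 ± 0.28 (adjusted p = 0.0106), and Ndufa7, at 0.57 ± 0.15 (adjusted p = 0.02).

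That pair rested on single arrays. The Ndufa4l2 call was lost without the first CD144+ array of day 3.5 (adjusted p 0.0861) or the first CD41+ array (0.136), and the Ndufa7 call without the second CD144+ array of day 3.5 (adjusted p 0.171) or the first CD41+ array (0.181). The count was 1 without the second CD144+ or the first CD41+ array and 7 without the second CD41+ array, and 15 members had an unadjusted p under 0.05. Ndufa7 was also higher in CD144+ cells at day 3.5 than in VEGF-R2+ cells. Its signals were 20172 and 24491 in CD144+ cells at day 3.5, against 14660 and 16050 in VEGF-R2+ cells. The change of 0.53 ± 0.15 (adjusted p = 0.036) was lost without the second CD144+ array of day 3.5 (adjusted p 0.238), the first VEGF-R2+ array (0.179) or the second VEGF-R2+ array (0.0779).

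At day 6.5 the members lower in CD144+ than in VEGF-R2+ cells were Ndufb1, Atp5g1, Ndufb2, Ndufa4, Sdha and Atp5l. Ndufb1, a small subunit of the membrane arm of complex I, read 298 and 317 in CD144+ cells at day 6.5, against 686 and 742 in VEGF-R2+ cells. Its arrays of day 6.5 were less bright than any other positive array, and the change of -1.20 ± 0.23 (adjusted p = 0.00154) held except under the 90% bound beyond 2-fold. Ndufa4 was counted here with complex I by its name, although its product is found with complex IV, and Ndufa4l2 was counted the same way. Ndufa4 read 7389.7 and 8379 in CD144+ cells at day 6.5, against 10577 and 12961 in VEGF-R2+ cells, a change of -0.57 ± 0.14 (adjusted p = 0.00892). Ndufb2 read 2617 and 3129.8 in CD144+ cells at day 6.5, against 4342 and 4257 in VEGF-R2+ cells, a change of -0.59 ± 0.13 (adjusted p = 0.00504).

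Atp5g1 is 1 of 3 genes for the same protein of the rotating c-ring. It changed by -0.62 ± 0.16 (adjusted p = 0.0126), while Atp5g2 and Atp5g3 had values of 0.36 and -0.23 that did not pass. Sdha changed by -0.44 ± 0.13 (adjusted p = 0.0337) and Atp5l, subunit g, by -0.41 ± 0.14 (adjusted p = 0.0497). All but Ndufb1 lost their call when single arrays were left out. This was so for Ndufb2 without the first CD144+ array of day 6.5 (adjusted p 0.0642), for Ndufa4 without the first CD144+ array of day 6.5 (adjusted p 0.0795) or the second VEGF-R2+ array (0.111) and for Atp5g1 without the first CD144+ array of day 6.5 (adjusted p 0.145) or the second VEGF-R2+ array (0.121). It was also so for Sdha without the second CD144+ array of day 6.5 (adjusted p 0.237), the first VEGF-R2+ array (0.13) or the second VEGF-R2+ array (0.0957) and for Atp5l without the first CD144+ array of day 6.5 (adjusted p 0.38), the first VEGF-R2+ array (0.0669) or the second VEGF-R2+ array (0.254).

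Endothelial markers summed to 20459–21010 in CD144+ cells at day 6.5, beside 5581–7365 in VEGF-R2+ cells, and smooth muscle and mesenchyme markers to 19464–20276, beside 2397–2594, and their part in these values was not tested.

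Between CD144+ cells of day 6.5 and of day 3.5, 1 member was higher and 4 were lower, with 3.2% and 2.64% of all probe sets. The median of the members was -0.22, which was -0.09 under quantile normalization and -0.06 under cyclic loess. Cox6b2 was the higher one, and Ndufb1 (-0.82, adjusted p = 0.0425), Cox5b (-0.69, adjusted p = 0.0139), Ndufa12 (-0.52, adjusted p = 0.0444) and Ndufb2 (-0.49, adjusted p = 0.0363) were the lower ones. A further probe set for Cox5b, with a plain ID, gave 0.28, the opposite direction. No call of this comparison held under every alternative, and the count was 1 without the first day 6.5 array and 0 without the second day 3.5 array.

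Changes among the negative fractions depended on the fit. In CD41- against VEGF-R2- cells 2 members were higher and 0 lower, with 1.57% and 1.89% of all probe sets. In CD144- cells of day 3.5 there were 8 higher and 0 lower, with 3.9% and 3.24%. In CD144- cells of day 6.5 there were 9 higher and 1 lower, with 5.05% and 3.72%. The members' medians were 0.16, 0.21 and 0.21, and at an unadjusted p under 0.05 there were 18, 29 and 26 members. The negative arrays of day 2.5 are shared by all of these comparisons. A fit of only the compared populations called 31 members for CD41- cells (26 higher and 5 lower) and 41 for CD144- cells at day 3.5 (38 higher and 3 lower), quantile normalization called 5 and 14, and a fit of the negative arrays alone 6, 14 and, at day 6.5, 19.

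Ndufa4l2 was among them, and read 295 and 258 in VEGF-R2- cells, 504 and 595 in CD41- cells, 619.7 and 603 in CD144- cells at day 3.5, and 585 and 519.7 in CD144- cells at day 6.5. The later negative arrays were all brighter than those of day 2.5, with changes of 0.97 (adjusted p = 0.074), 1.13 (adjusted p = 0.02) and 0.98 (adjusted p = 0.0382). In CD144- cells of day 3.5 Atp5mpl (0.75, adjusted p = 0.0154), Ndufb11 (0.61, adjusted p = 0.0335), Sdhd (0.61, adjusted p = 0.0207) and Ndufs3 (0.42, adjusted p = 0.0349) were higher beside Cox6b2, Cox7a1 and Ndufa6. In CD144- cells of day 6.5 Ndufb11 (0.82, adjusted p = 0.00454), Ndufa12 (0.60, adjusted p = 0.0145), Ndufc2 (0.59, adjusted p = 0.0297) and Ndufc1 (0.56, adjusted p = 0.0262) were higher, and Atp5g1 was the one that was lower (-0.65, adjusted p = 0.0152), though a further probe set for it gave 0.27. Only Cox6b2 kept its call under every alternative: without any 1 array the counts were 1 for CD41- cells and 1 for CD144- cells at day 3.5, and for day 6.5 they were 2 without the second CD144- array, 1 without the first VEGF-R2- array and 2 without the second.

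From day 3.5 to day 6.5 no change was called among CD144- cells by limma, where 0.557% of all probe sets were higher and 0.162% lower. The smallest adjusted p was 0.317, for Sdhd, and 3 members had an unadjusted p under 0.05. Under the other settings the count was also 0, except that it was 2 without the first CD144- array of day 6.5.

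Whether the change over time differed between positive and negative cells was tested in the same model. For CD41 against VEGF-R2 0 members were higher and 2 lower in the positive cells' change, with 2.33% and 2.4% of all probe sets, for CD144 at day 3.5 0 and 2, with 3.1% and 2.2%, and for CD144 at day 6.5 0 and 4, with 2.8% and 2.05%. At an unadjusted p under 0.05 there were 12, 11 and 26 members. Ndufa4l2 had the largest difference, -2.85 ± 0.40 (adjusted p = 0.000323) for CD41, which held throughout, and -1.80 ± 0.40 (adjusted p = 0.0115) for CD144 at day 3.5. It fell in CD41+ cells and was brighter in CD41- cells than at day 2.5, as the signals above show.

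Ndufs3, a core subunit of complex I, read 6078 and 5958 in VEGF-R2+ cells, 5343 and 5202 in CD144+ cells at day 3.5, and 5035 and 4845 in CD144+ cells at day 6.5. In the negative fractions it read 3273 and 3352 in VEGF-R2- cells, 4531 and 4317 in CD144- cells at day 3.5, and 4249.9 and 4974 in CD144- cells at day 6.5. The positive arrays were dimmer after day 2.5 and the negative arrays brighter, and the differences of the changes were -0.61 ± 0.16 (adjusted p = 0.0365) at day 3.5 and -0.76 ± 0.16 (adjusted p = 0.0108) at day 6.5. Ndufb2 differed by -0.79 ± 0.18 (adjusted p = 0.018) for CD41 and by -0.88 ± 0.18 (adjusted p = 0.00973) for CD144 at day 6.5, Ndufa12 by -0.80 ± 0.21 (adjusted p = 0.0327) and Ndufa4 by -0.75 ± 0.20 (adjusted p = 0.0354). The direction for Ndufa12 turned with the probe set, since a further one gave 0.90 for the same difference. The members' median difference at day 6.5 was -0.31, beside -0.23 for the brightest 5% of probe sets, and it was -0.19 under quantile normalization and -0.09 under cyclic loess.

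These differences rest on 8 arrays each, and single arrays moved the counts. For CD41 the count was 1 without the first CD41+, VEGF-R2+ or CD41- array or either VEGF-R2- array. For CD144 at day 3.5 it was 0 without the second CD144+ or the second VEGF-R2- array and 1 without the first CD144+, the second VEGF-R2+, either CD144- or the first VEGF-R2- array. At day 6.5 it was 0 without the first VEGF-R2- array, 1 without the second, and 2 without the first CD144+ or the second VEGF-R2+ array. By gene, Ndufs3 lost its day 3.5 call without any 1 of its 8 arrays (adjusted p 0.0605 to 0.16) and its day 6.5 call without the first VEGF-R2- array (adjusted p 0.0696) or the second VEGF-R2- array (0.0562), and Ndufa4l2 lost that of day 3.5 without the second CD144+ array of day 3.5 (adjusted p 0.061) or the second VEGF-R2- array (0.0646). Ndufb2 lost its day 6.5 call without the first VEGF-R2- array (adjusted p 0.062). Ndufa12 lost its call without the first CD144+ array of day 6.5 (adjusted p 0.12), the first VEGF-R2+ array (0.0739), the second VEGF-R2+ array (0.0839), the second CD144- array of day 6.5 (0.119), the first VEGF-R2- array (0.153) or the second VEGF-R2- array (0.0964), and Ndufa4 without the first CD144+ array of day 6.5 (adjusted p 0.12), the second VEGF-R2+ array (0.141), the first CD144- array of day 6.5 (0.104), the first VEGF-R2- array (0.132) or the second VEGF-R2- array (0.14).

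The other tissue forms of complex IV were dim and varied between duplicates. Cox4i2, a form known from lung that responds to oxygen, read 138 and 193 in VEGF-R2+ cells, against 48.5 and 46.7 in VEGF-R2- cells. The positive arrays were brighter, but the change of 1.66 ± 0.60 (adjusted p = 0.0525) did not pass, and neither did those of the other sorts (1.31, 1.08 and 1.66). Cox8b, the heart and muscle form of subunit VIII, read 145 and 89.9 in CD41+ cells, against 11.1 and 22.3 in CD41- cells. Its change of 2.45 ± 0.82 (adjusted p = 0.0324) in the CD41 sort was lost without any 1 of its 4 arrays (adjusted p 0.0547 to 0.186) and with an offset of 1 (0.0642).

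Cox8c, the testis form of subunit VIII, was higher in CD144+ cells on both days. It read 442 and 503 in CD144+ cells at day 6.5, against 182 and 315 in CD144- cells at day 6.5. The groups did not overlap, with changes of 0.96 ± 0.27 (adjusted p = 0.0186) at day 6.5 and 1.10 ± 0.27 (adjusted p = 0.00794) at day 3.5, but the probe set of largest variance gave -1.44 in the day 3.5 sort, and the calls were lost without the second CD144+ array of day 6.5 (adjusted p 0.111) or the first CD144- array of day 6.5 (0.235) at day 6.5 and without the first CD144+ array of day 3.5 (adjusted p 0.0518) or the second CD144- array of day 3.5 (0.0952) at day 3.5. Cox8a, the form of most tissues, was called in no same-day sort, with values between -0.20 and 0.11. Cox6a2, the muscle form of subunit VIa, had values between -0.15 and 0.34, and Cox6a1, the common form, was higher in the first 3 sorts, by 0.84, 0.83 and 0.94. Cox7b2, a testis form, ranged between -1.17 and 1.46 and was not called.

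Succinate dehydrogenase had the fewest members. Sdha, which carries the flavin, and Sdhb, with the iron-sulfur clusters, were higher in VEGF-R2+ cells, by 0.55 ± 0.13 (adjusted p = 0.00579) and 0.65 ± 0.14 (adjusted p = 0.00281), as was Sdhd, a membrane anchor, by 0.61 ± 0.15 (adjusted p = 0.00752). In the CD41 sort Sdha (0.62, adjusted p = 0.00185) and Sdhd (0.46, adjusted p = 0.0316) were higher, and in the day 3.5 CD144 sort only Sdhb (0.67, adjusted p = 0.00273). Sdhc, the other anchor, read 3732 and 2540.4 in CD144+ cells at day 3.5, against 4104 and 4366 in CD144- cells at day 3.5, and its values in the 4 sorts, between -0.46 and 0.07, did not pass. The call of Sdha in the VEGF-R2 sort was lost without the first VEGF-R2- array (adjusted p 0.0555) and that of Sdhd without the second VEGF-R2+ array (adjusted p 0.0547) or the first VEGF-R2- array (0.0653). The call of Sdhd in the CD41 sort was lost without the first CD41+ array (adjusted p 0.157), the first CD41- array (0.17) or the second CD41- array (0.0822) and that of Sdhb in the CD144 sort without the first CD144- array of day 3.5 (adjusted p 0.0623). A further probe set for Sdha gave 0.07 in the VEGF-R2 sort and -0.53 in the day 6.5 CD144 sort, the second of which was called.

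Ndufb4, Uqcrq and Atp5md are small accessory subunits of complexes I, III and V. Ndufb4 was read from a dim probe set, with population means between 14.0 and 54.1, because its other probe sets, with mean log2 signals of 12.79 and 11.99, were annotated to several symbols and were not used. Ndufb4 ranged between -0.41 and 1.55 and Atp5md between 0.40 and 0.89 in the 4 sorts, with none called. Uqcrq was higher in the CD41 sort, by 0.47 ± 0.14 (adjusted p = 0.0196), and in the day 3.5 CD144 sort, by 0.45 ± 0.14 (adjusted p = 0.0355), though its probe set with a plain ID gave -0.38 in the CD41 sort. The calls were lost without the second CD41+ array (adjusted p 0.0828) or the second CD41- array (0.17) and without the first CD144+ array of day 3.5 (adjusted p 0.281), the first CD144- array of day 3.5 (0.201) or the second CD144- array of day 3.5 (0.1).

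Genes next to the chain moved in part with it. The lists below were chosen with earlier results of these data known. Of 50 genes for the mitochondrial ribosome, 34 were higher and 0 lower in the VEGF-R2 sort by limma, 37 and 0 in the CD41 sort, 30 and 0 in the day 3.5 CD144 sort, and 25 and 2 in the day 6.5 CD144 sort, with medians of 0.61, 0.67, 0.60 and 0.45. Mrps21 changed by 1.57 in the VEGF-R2 sort, Mrps7 by 1.45 in the CD41 sort and Mrpl17 by 1.39 in the day 3.5 CD144 sort. The cytosolic ribosome, which works outside mitochondria, had 30 higher and 1 lower, 29 and 2, 29 and 1, and 26 and 2 of 33 genes in the same order, with medians of 0.96, 0.82, 0.95 and 0.72.

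Assembly factors, which build the complexes without staying in them, had 16 higher and 4 lower of 42 in the VEGF-R2 sort, 22 and 1 in the CD41 sort, 12 and 4 in the day 3.5 CD144 sort and 13 and 3 in the day 6.5 CD144 sort. Ndufaf5, for complex I, changed by 1.22 and Sco2, which brings copper to complex IV, by 1.17 in the VEGF-R2 sort, where Cox15, needed for heme A, changed by -1.14. Sdhaf1, for complex II, changed by 1.62 in the CD41 sort. Of 23 regulators of mitochondrial genes 2 were higher and 6 lower in the VEGF-R2 sort, and 1 and 8 in the day 6.5 CD144 sort. In the latter 9.41% of all probe sets were higher and 10.1% lower. Nrf1, the factor whose site is named above, changed by -0.89, Tfb2m, a mitochondrial transcription factor, by -1.84 and Polg, the mitochondrial DNA polymerase, by 1.09 in the VEGF-R2 sort.

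For the citric acid cycle 7 genes were higher and 1 lower of 17 in the VEGF-R2 sort, 9 and 1 in the CD41 sort, 5 and 6 in the day 3.5 CD144 sort and 3 and 3 in that of day 6.5. Idh3g, a subunit of isocitrate dehydrogenase, changed by 1.34 in the VEGF-R2 sort. Among 16 electron carriers and near relatives of the members, 8 were higher and 3 lower in the VEGF-R2 sort. The shares of all probe sets given above stand beside these counts too. Cyct, the testis form of cytochrome c, changed by -3.04 in the VEGF-R2 sort and by 1.87 in the day 3.5 CD144 sort.

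At day 6.5 glycolysis and mitochondrial ribosome genes stood on opposite sides in CD144+ against VEGF-R2+ cells. Of 15 glycolysis genes 10 were higher and 0 lower by limma (median 0.80), with Slc2a1, a glucose transporter, at 1.96, Aldoc, an aldolase, at 1.85 and Hk1, a hexokinase, at 1.46. Of the 50 mitochondrial ribosome genes 1 was higher and 17 were lower (median -0.32), with Mrpl20 at -1.28 and Mrps18b at -1.03. Assembly factors had 6 higher and 11 lower, the citric acid cycle 1 and 4 and the cytosolic ribosome 0 and 2. As shares, 66.7% of glycolysis genes were higher and 34% of mitochondrial ribosome genes lower, beside 4.94% of the chain's members higher and 7.41% lower. Over all probe sets 9.4% were higher and 6.1% lower, and over the brightest 5% of them 7.99% and 24.2%. Under cyclic loess the shares of the brightest 5% were 19.7% and 15.9%, and the lists were not refitted under another scaling. In the negative fractions 8 glycolysis genes were higher and 1 lower by day 6.5, and of the mitochondrial ribosome 1 was higher and 8 were lower. Over all probe sets 5.05% were higher and 3.72% lower in that comparison of negative cells. Pluripotency markers (8 genes) summed to 22186–25319 in CD144+ cells at day 6.5, beside 11712–13120 in VEGF-R2+ cells, and their part in these counts was not tested.

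**Figure D5:**
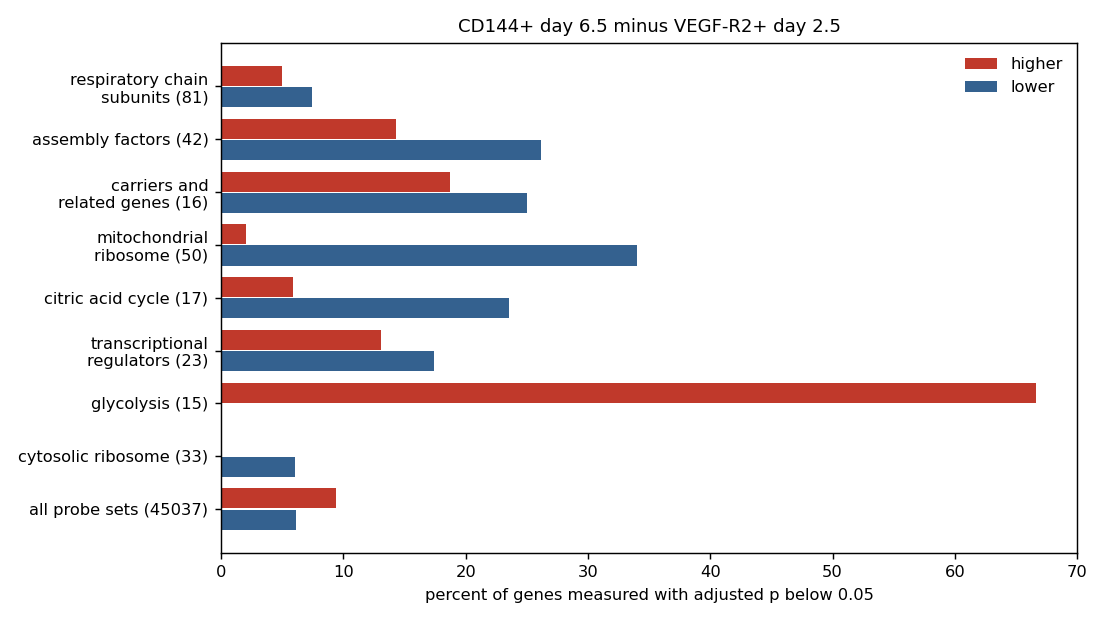
Percent of the genes of each list that were called higher (red) or lower (blue) at an adjusted p under 0.05 in CD144+ cells at day 6.5 against VEGF-R2+ cells at day 2.5, with the number of genes measured beside each name. Glycolysis has the longest red bar (66.7%) and the mitochondrial ribosome the longest blue bar (34%), beside 4.94% and 7.41% for the respiratory chain. For all probe sets the bars are 9.4% and 6.1%.

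Pluripotency markers also moved with the same-day sorts. They summed to 11712–13120 in VEGF-R2+ and 44352–45625 in VEGF-R2- cells, 2176–6614 in CD41+ and 65287–65392 in CD41- cells, 42443–48358 in CD144+ and 30712–31620 in CD144- cells at day 3.5, and 22186–25319 in CD144+ and 34527–34776 in CD144- cells at day 6.5. Of the 8, 7 were lower in the VEGF-R2 sort, 8 in that of CD41 and 3 in that of CD144 at day 6.5. In that of CD144 at day 3.5, 4 were higher and 1 was lower. Over all probe sets the shares lower were 13.8% for VEGF-R2, 15.8% for CD41 and 10.1% for CD144 at day 6.5. For CD144 at day 3.5, 9.49% were higher and 10.5% lower. The part of this list in the members' values was not tested.

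The choice of probe set was checked over all 164 probe sets of the members. In the 4 same-day sorts 102 were higher and 5 lower, 99 and 6, 91 and 5, and 59 and 5. Over all probe sets the shares were 11.1% and 13.8%, 13.5% and 15.8%, 9.49% and 10.5%, and 9.41% and 10.1%. Against VEGF-R2+ cells 10 were higher and 3 lower in CD41+ cells, 7 and 3 in CD144+ cells at day 3.5 and 6 and 9 in those at day 6.5. Over all probe sets the shares of these comparisons were 5.02% and 4.82%, 4.87% and 2.84%, and 9.4% and 6.1%. For 48 members there was more than 1 probe set, and for 43 the one used had an ID ending that marks probes shared between transcripts, so that related transcripts may add to it. Cox6b2, Cox7a1, Ndufa6, Ndufv3, Ndufa4l2 and Ndufs5 each had 1 probe set annotated to a single symbol, so no second reading was used for them. The alternatives of another probe set could therefore not change their calls.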

How the data were processed

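RNA of 8 sorted populations, with 2 arrays each, was hybridised to Affymetrix mouse genome-wide arrays. The deposited values were linear intensities, the MAS5 signals that the authors' processing notes name, 1 per probe set and array. Each array had been scaled to a common level before deposit, since the mean of its signals between the 2nd and the 98th percentile was 500.003 to 500.004 on all 16 arrays. The MAS5 version and detection calls are not given in the sources used here, and the study's own gene lists, made with dChip, were not used. Of 45101 probe sets, 64 controls were left out and 45037 were tested. By GEO's platform annotation 34945 of these had 1 gene symbol, 932 had several and 9160 had none, and no gene was named from a probe set with several. All 81 symbols matched RefSeq.

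Signals were taken as log2(signal + 6), which understates changes of dim probe sets, and a fold change is on that scale. limma 3.58.1 in R 4.3.3 fitted 1 coefficient per population over the 16 arrays, with a trended prior. P-values were 2-sided and Benjamini-Hochberg adjusted over 45037 probe sets in each of 13 comparisons and 3 tests of whether a change over time differed between positive and negative cells, with a threshold of 0.05. Values after ± are standard errors of the log2 fold change, from residuals of 2 arrays in each population, pooled over the 16 arrays and moderated by the prior. Positive duplicates were less alike than negative ones, so the pooled error need not be that of the compared populations. The limma fit of a single comparison, CD41+ against VEGF-R2+ cells, was tested first on simulated data with independent noise. The changes added there were larger than most changes of the members, and the other steps were not tested in this way. The number of arrays limits the precision.

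The members and the lists were chosen with earlier results of these data known. Members named were the called ones with the largest changes and no overlap (up to 6 per direction), tissue forms, the 4 succinate dehydrogenase genes, the members of highest and lowest mean in each complex and those whose change over time differed. From each list up to 3 called genes were named. Other members are listed only to account for a count. Alternatives were other offsets, quantile normalization, other probe sets per gene, a filter on dim probe sets, smaller fits, a robust prior, a replicate block, a 90% bound beyond 2-fold, each array left out, and cyclic loess, which was added after the data were seen. Promoters came from RefSeq, with 66 members matched. Figures were drawn with matplotlib 3.10.9.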

Additional observations from a re-analysis of the deposited data

Results flagged for a closer look

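For a few members the change over time differed between positive and negative cells by limma. Of the members 2.47%, 2.47% and 4.94% were lower for CD41, CD144 at day 3.5 and CD144 at day 6.5. Over all probe sets 2.4%, 2.2% and 2.05% were lower, so the day 3.5 shares were near those of all probe sets. Over the brightest 5% of probe sets 7.95% were lower for CD144 at day 6.5, more than of the members. For CD41 against VEGF-R2 these were 2 members, Ndufa4l2 (difference of log2 changes -2.85) and Ndufb2 (-0.79). For CD144 at day 3.5 there were 2, Ndufa4l2 (-1.80) and Ndufs3 (-0.61). For CD144 at day 6.5 there were 4, Ndufb2 (-0.88), Ndufa12 (-0.80), Ndufs3 (-0.76) and Ndufa4 (-0.75). These differences were negative with the probe sets used, but for Ndufa12 a further probe set gave 0.90. In each the later positive cells were compared with VEGF-R2+ cells and the later negative cells with VEGF-R2- cells. The 3 tests share the arrays of day 2.5. Of these calls, that of Ndufa4l2 for CD41 held under every alternative, though those of another probe set could not change it.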

How the results depend on the processing

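Counts of called members are given as CD41, CD144 day 3.5 and CD144 day 6.5 for the later positive cells against VEGF-R2+ cells, and likewise for negative cells against VEGF-R2- cells. Offsets of 1 and 32 moved no count by over 1.5 times. Over the named members, 1431 alternative values kept their direction and their side of the threshold, 370 no longer passed and 10 turned round. Members with 1 probe set could not change under the settings of another probe set, and these values are among those kept. Where a value below moved, the cause was not tested unless the setting itself removes arrays or probe sets.

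The values that turned round were those of Ndufs4 in the VEGF-R2 sort (-0.15), Cox8c in the day 3.5 CD144 sort (-1.44), Atp5g1 in the day 6.5 CD144 sort (-0.66) and in CD144- cells of day 6.5 against VEGF-R2- cells (0.27), and the day 6.5 difference of Ndufa12 (0.90) with the probe set of largest variance. With a plain probe set ID they were Uqcrq in the CD41 sort (-0.38), Cox5b between CD144+ cells of day 6.5 and 3.5 (0.28), the same Atp5g1 values (-0.66 and 0.27) and the same value of Ndufa12 (0.90).

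By setting, counts moved as follows. Quantile normalization gave 5 for CD41- and 14 for CD144- cells at day 3.5, and cyclic loess 3 between the CD144+ days and 2 for the day 6.5 difference. The filter on dim probe sets gave 8 between the CD144+ days, 4 between CD144+ and CD41+ cells and 4 for CD41- cells. A fit of only the compared populations gave 12 for the day 6.5 CD144 sort, 3 for CD41+ cells, 6 for CD144+ cells at day 6.5, 1 between the CD144+ days, 0 between CD144+ and CD41+ cells, 31 for CD41- cells, 41 for CD144- cells at day 3.5, and 4 and 2 for the differences of CD144 at day 3.5 and 6.5. A fit of arrays of 1 sort sign gave 4 for CD41+ cells, 1 between the CD144+ days, 0 between CD144+ and CD41+ cells, and 6, 14 and 19 for the negative cells. Replicate numbers did not pair the arrays, since deviations of same-numbered arrays correlated at -0.17 to 0.157 over 28 pairs of populations, with 2 over 0.1. With the replicate number as a block the count was 8 between the CD144+ days, and no other count moved by over 1.5 times.

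A robust prior without a trend gave 14 for the day 6.5 CD144 sort, 3, 2 and 4 for the later positive cells, 0 between the CD144+ days and between CD144+ and CD41+ cells, 1, 1 and 2 for the negative cells and 1 for each difference. The bound beyond 2-fold gave 4, 7, 2 and 0 in the same-day sorts, 2, 2 and 1 for the later positive cells, 1 between the CD144+ days, 0 between CD144+ and CD41+ cells, 1 for each of the later negative cells, and 1 and 0 for the differences of CD41 and CD144 at day 6.5. A plain probe set ID gave 2 between the CD144+ days, 4 between CD144+ and CD41+ cells and 1 for the CD41 difference. The probe set of largest variance gave 6 between CD144+ and CD41+ cells, 4 for CD41- cells and 5 for the day 3.5 CD144 difference.

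With each array left out in turn, counts were 41 to 51, 39 to 55, 34 to 47 and 16 to 38 in the same-day sorts, 3 to 6, 2 to 7 and 6 to 9 for the later positive cells, 0 to 5 between the CD144+ days, 1 to 7 between CD144+ and CD41+ cells, 1 in all cases for CD41- cells and for CD144- cells at day 3.5, 1 to 10 for those at day 6.5, 0 to 2 between the CD144- days, and 1 to 2, 0 to 2 and 0 to 6 for the differences. A population left with 1 array was taken to vary like the others.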
